A study of Mus musculus with 6 samples.

Results

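The transition proteins and protamines are small basic proteins that package the chromatin of the sperm head. The mouse genes *Tnp1*, *Tnp2*, *Prm1* and *Prm2*, with *Prm3*, a gene of the protamine cluster whose product is acidic and is not a chromatin protein of this kind, were followed in RNA-seq of STRA8+ testis cells. These 5 genes, of 54532 in the table, were chosen by their levels in control against cKO libraries and by the spread among the control libraries. Their values are therefore a description, with no test, and nothing is supported with them. Averaged over 6 libraries, all 5 genes reached 1 FPKM, as did 15451 genes of the table; a gene can pass this filter through the control libraries alone.

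The study sequenced total RNA of STRA8+ germ cells from mouse testes, in 3 control libraries (genotype Cre) and 3 cKO libraries (genotype Srsf1 knockout, a conditional knockout). The comparison asks which transcripts differ when the splicing factor gene *Srsf1* is deleted. The promoter that drives Cre, the age and the strain of the mice are not given in the sources used here. The labels do not say that the libraries came from separate animals, so p-values measure only the spread between these libraries, which may be technical.

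During spermiogenesis, the haploid phase in which round spermatids become sperm, histones are first replaced by transition proteins and these in turn by protamines. The genes are transcribed in round spermatids, and their mRNAs are stored and translated later, in elongating spermatids. *Prm1*, *Prm2*, *Prm3* and *Tnp2* lie in 1 cluster on chromosome 16, and *Tnp1* lies on chromosome 1.

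The targeted gene followed the labels. *Srsf1* was at 84.7, 45.2 and 51.9 FPKM (fragments scaled to gene length and to a depth factor of each library, as deposited) in control 1 to 3. It was at 5.08, 4.94 and 5.17 FPKM in cKO 1 to 3. The groups did not overlap, and the log2 fold change was -3.29 ± 0.22 (SE; limma adjusted p = 5.6e-05, lower in 3 of 3 cKO libraries). The cells were labelled STRA8+, and *Stra8* was high in every library, at 244 ± 20.3 FPKM in controls and 272 ± 36.4 FPKM in cKO (SD, n = 3 each; limma adjusted p = 0.359). The transcript of this marker was thus present in both groups. No library of other cells is at hand for comparison, so its level does not test the label.

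Among the 15451 genes tested, limma called 3437 lower in cKO and 1821 higher (adjusted p at most 0.05), which is 22.2% and 11.8%. With quantile normalization 2527 were called lower and 5164 higher, so that 67.1% of calls were higher against 34.6%, and without cKO 3 the counts were 2693 and 969. Without control 1, control 3 or cKO 1, the genes called higher numbered 1068, 1079 and 1172. With the replicate number as a block, 2870 were called lower and 891 higher. In 28.6% of the 15451 genes every cKO library lay below every control library, and in 21.8% every cKO library lay above. All 5 members lay below in every cKO library; since this contrast chose them, nothing is read from that count.

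*Tnp1* encodes transition protein 1. It was at 339, 1205 and 321 FPKM in control 1, 2 and 3. In cKO 1, 2 and 3 it was at 1.02, 0.469 and 0.452 FPKM. The groups did not overlap by a wide margin, and control 2 stood above the other control libraries.

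*Tnp2* encodes transition protein 2. It was at 708, 2648 and 775 FPKM in the control libraries. In the cKO libraries it was at 0.460, 0.863 and 0.356 FPKM. The groups were again far apart, and control 2 was again the highest library.

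*Prm1* encodes protamine 1. Its control values were 720, 2431 and 696 FPKM. Its cKO values were 1.23, 1.32 and 1.27 FPKM, the most even of the 5 genes in cKO, with 11 fragments in each library. No other member was above 1.02 FPKM in any cKO library.

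*Prm2* encodes protamine 2, which is made as a precursor and trimmed. It was at 583, 1651 and 524 FPKM in the control libraries. In the cKO libraries it was at 0.356, 0.687 and 0.221 FPKM. Here too the 3 cKO libraries were low and the 3 control libraries high.

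*Prm3*, the least abundant member, lies between *Prm2* and *Tnp2* in the cluster. It was at 15.7, 44.6 and 17.8 FPKM in the control libraries. In cKO it was at 0.310, 0 and 0.160 FPKM, which is 2, 0 and 1 fragments. Groups did not overlap for this gene either, although its control level was far below that of the others.

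**Figure D1:**
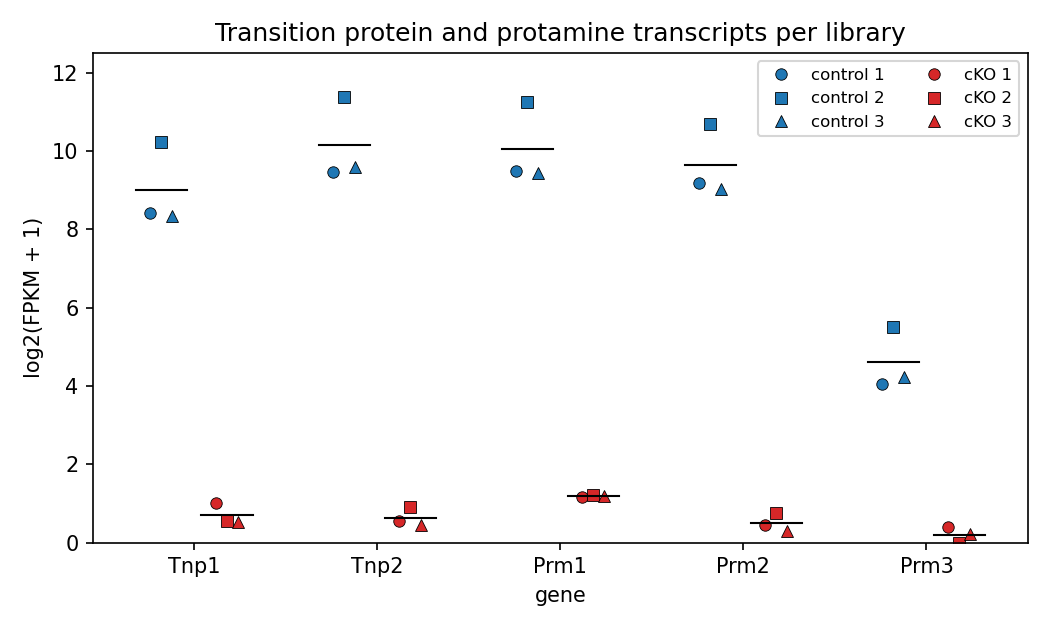
Level of each gene as log2(FPKM + 1) in each of 3 control and 3 cKO libraries; points are libraries, marked by replicate number, and horizontal lines are group means. All cKO points lie below all control points, and control 2 is the highest point of every gene.

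On the log2(FPKM + 1) scale, which understates the difference of low genes, the cKO mean minus the control mean was -8.29 for *Tnp1*. It was -9.52 for *Tnp2*. It was -8.88 for *Prm1*, -9.15 for *Prm2* and -4.40 for *Prm3*. All of these differences rest on few cKO fragments, so the pooled ratios carry exact 95% intervals, which cover counting error only.

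Over the 3 cKO libraries together, 13 fragments of *Tnp1* were counted against 12939 in controls, leaving 0.108% of the control level (0.0576% to 0.185%). For *Tnp2* 14 fragments against 36377 left 0.0415% (0.0227% to 0.0696%). For *Prm1* 33 against 34912 left 0.102% (0.0701% to 0.143%). Each of these ratios rests on 33 or fewer cKO fragments. For *Prm2* 17 against 39329 left 0.0466% (0.0271% to 0.0746%). For *Prm3* 3 against 512 left 0.632% (0.130% to 1.86%). The intervals show the counting error of each gene, and no order of the members is read from them. A floor of 3 fragments corresponds to 0.437 FPKM for *Tnp1* in cKO 1 and 0.334 FPKM for *Prm1*, so cKO values near these cannot be ordered.

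Control 2 stood apart from control 1 and 3. It was 3.65 times the mean of control 1 and 3 for *Tnp1*. It was 3.57 times for *Tnp2*, 3.44 times for *Prm1*, 2.98 times for *Prm2* and 2.66 times for *Prm3*. Across the 15451 genes, the median of the log2 of this ratio (1 FPKM added) was -0.01, and 324 genes (2.10%) had a value at or above the lowest member. Without control 2, the log2 differences were -7.67 for *Tnp1* and -8.91 for *Tnp2*. They were -8.29 for *Prm1*, -8.62 for *Prm2* and -3.94 for *Prm3*. The percent left, which rests on the pooled control level, moved further. Without control 2 it was 0.198% for *Tnp1* (0.105% to 0.339%). It was 0.0747% for *Tnp2* (0.0408% to 0.125%), and 0.179% for *Prm1* (0.123% to 0.252%). It was 0.0755% for *Prm2* (0.0440% to 0.121%), and 0.959% for *Prm3* (0.196% to 2.84%). Each value was over 1.5 times that with all control libraries.

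Per length, the order within the control libraries was steady at the lower end, with *Prm2* above *Tnp1* and *Tnp1* above *Prm3* in all 3. *Tnp2* and *Prm1* changed places, with *Prm1* the higher in control 1 and *Tnp2* in control 2 and 3. The ratio of *Tnp2* to *Prm1* was 1.06 ± 0.07 (SD, n = 3), and no order of these neighbours is read from it. The ratio of *Prm1* to *Tnp1* ran from 2.02 to 2.17, a narrow range beside the spread of either gene alone. The ratio of *Prm1* to *Prm2* ran from 1.23 to 1.47. In control 2 *Tnp2*, *Prm1* and *Prm2* were the 3 highest nuclear protein-coding genes. Together the 5 genes took 0.144%, 0.486% and 0.144% of the fragments in control 1, 2 and 3, against 29, 30 and 21 fragments in cKO 1, 2 and 3.

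In bulk libraries such as these, fewer cells of a type and less RNA per cell cannot be told apart. Markers of the cells that carry these transcripts moved with them. Over all 15451 genes tested limma called 22.2% lower and 11.8% higher, which is the background for each marker count below. For 12 round spermatid markers, the summed level was 123, 272 and 126 FPKM in the control libraries. In the cKO libraries it was 4.82, 6.04 and 5.76 FPKM. All 12 were called lower by limma, and *Spaca3*, *Spaca7* and *Txndc8* were at 0 in all cKO libraries, while *Tssk2*, a testis kinase, was the most abundant.

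For 12 elongating spermatid markers, the sum was 695, 1715 and 662 FPKM in the control libraries. In cKO it was 22.0, 20.4 and 19.5 FPKM. All 12 were called lower, with *Cabs1* at 0 in all cKO libraries and *Smcp*, a sperm mitochondrial protein gene, the most abundant. Control 2 was the highest library in both sums, as for the 5 members.

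Of 10 pachytene spermatocyte markers 9 were called lower, and their sum was 1312, 1360 and 1155 FPKM in controls against 284, 265 and 258 FPKM in cKO; *Ybx2* was the most abundant and none was at 0 in all cKO libraries. Of 10 early meiotic prophase markers 2 were called lower, near the share of 22.2% over all genes tested, so nothing is read from this count. The sum of these markers was 1274, 933 and 1175 FPKM in controls against 1008, 1249 and 943 FPKM in cKO, led by *Sycp3*. Of 8 differentiating spermatogonia markers 1 was called lower and 0 higher by limma, with 4 higher at an unadjusted p under 0.05. Called higher were 5 with quantile normalization and 2 with limma-voom, with recomputed FPKM or without control 2. Their count was 1 with a mean of at least 5 FPKM, without control 1 or without cKO 1. The sums of this list, led by *Stra8*, ran from 653 to 681 FPKM in controls and from 683 to 748 FPKM in cKO, slightly higher in each cKO library. Of 10 tested undifferentiated spermatogonia markers 1 was called lower and 1 higher, and the groups overlapped in the sum, led by *Lin28a*. The higher count was 5 with quantile normalization, 3 with limma-voom and 2 without control 2. It was 0 with the replicate number as a block, with a mean of at least 5 FPKM, and without control 3, cKO 1 or cKO 3; the lower count was 0 with a mean of at least 5 FPKM. The sums of the early lists differed little beside those of the later stages. The part of the marker differences in the levels of the 5 members was not tested.

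Somatic markers were present in both groups. Sertoli markers, led by *Clu*, summed to between 80.0 and 118 FPKM in controls and between 71.2 and 146 FPKM in cKO. Of 8 tested 1 was called higher, near the share of 11.8% over all genes tested, so nothing is read from this count. Leydig cell, peritubular cell and macrophage, blood and endothelium lists, led by *Insl3*, *Tagln* and *Cd68*, had 2 tested genes each, of which limma called 0; at an unadjusted p under 0.05 it had 1, 1 and 0 of them higher, and *Tagln* was called higher in 5 of the 14 alternatives that tested it. Limma-voom called 1 gene of the Leydig and 1 of the peritubular list higher. The highest of their sums in any library was 14.0 FPKM. No marker of these 4 somatic lists was at 0 in all cKO libraries.

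**Figure D2:**
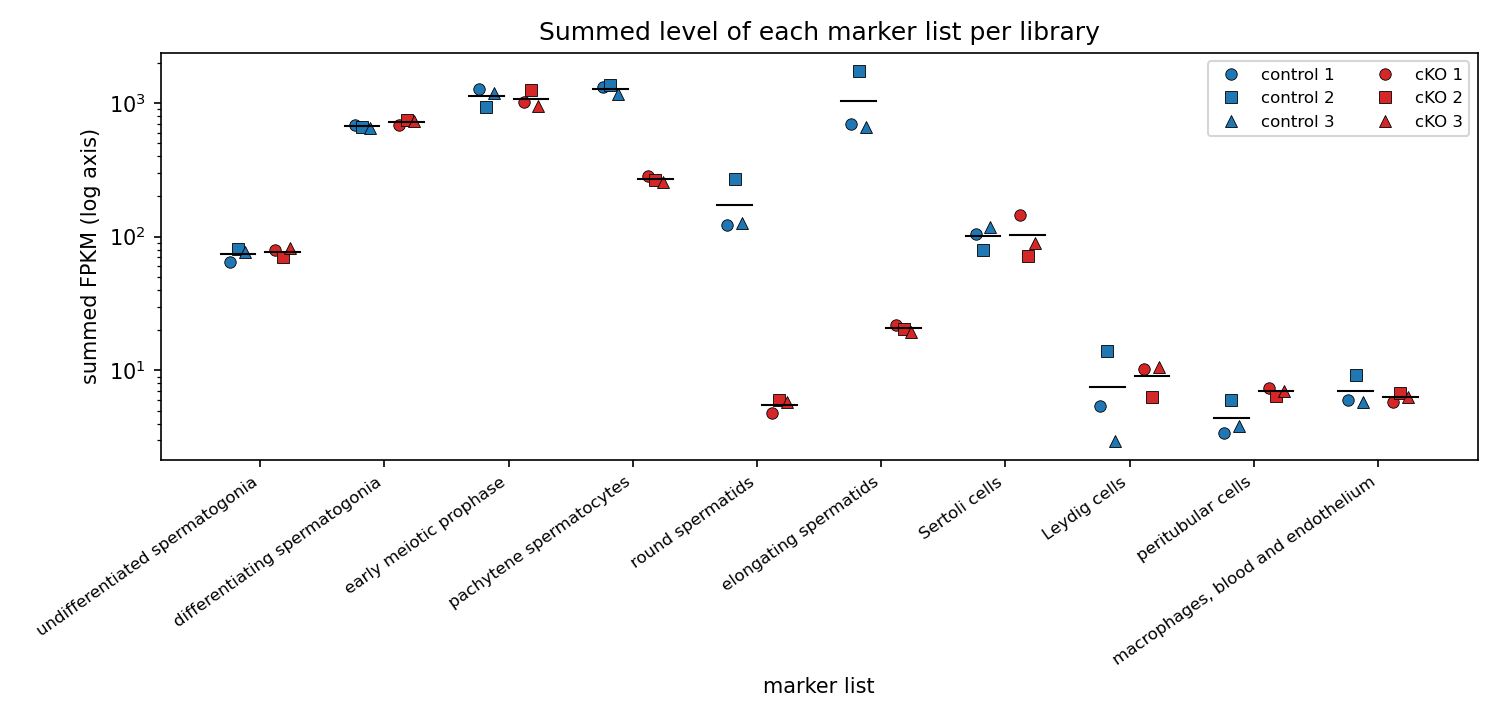
Summed FPKM of each marker list in each library, on a log axis; points are libraries and lines are group means. The pachytene, round spermatid and elongating spermatid sums are lower in every cKO library than in any control library.

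The genes around protamine biology were read from 5 lists of 52 genes, of which 49 were tested. In these lists limma called 29 genes lower and 4 higher, with a median log2 fold change of -0.51, beside 22.2% lower, 11.8% higher and a median of -0.01 over all 15451 genes. These shares over all genes are the background for the count of each of the 5 lists. Of the genes called lower, *Hspa2*, *Tssk6*, *Ybx2*, *Piwil1*, *Tbpl1* and *Hils1* also stand in the marker lists above.

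Of 11 transcriptional activators, 7 were called lower and 1 higher, with a median of -1.16. The higher count was 2 with a mean of at least 5 FPKM, 3 with quantile normalization, recomputed FPKM or limma-voom, and 0 with the replicate number as a block. *Fhl5*, the CREM coactivator also known as ACT, was at 18.6, 58.4 and 19.3 FPKM in controls and at 0, 0.0583 and 0.0562 FPKM in cKO. With 2 cKO fragments in all, 0.120% of its control level was left (0.0145% to 0.434%), or 0.198% (0.0239% to 0.717%) without control 2. *Gtf2a1l*, a testis form of general factor TFIIA, was at 23.6 ± 5.04 FPKM in controls and 0.107 ± 0.119 FPKM in cKO (SD, n = 3 each; limma adjusted p = 4.9e-06). The largest level in the list was that of *Taf7l*, a TFIID subunit, which was called higher with 292 ± 29.0 FPKM in controls and 409 ± 35.3 FPKM in cKO (limma adjusted p = 0.0120; 0.0518 with the replicate number as a block, and 0.0022 to 0.0518 over 15 alternatives). *Kdm3a*, a histone demethylase, was not called, at 29.9 ± 3.65 FPKM in controls and 27.3 ± 2.33 FPKM in cKO.

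Of 11 histone-to-protamine exchange factors, 7 were called lower and 0 higher, with a median of -0.51; without cKO replicate 3 the count was 4. At an unadjusted p under 0.05 limma also had 0 of them higher, as did limma-voom. *Tssk6*, a spermatid kinase, was at 22.6, 53.8 and 25.1 FPKM in controls and at 3.81, 2.51 and 1.38 FPKM in cKO. *Phf7* was at 106 ± 17.8 FPKM in controls and 18.6 ± 1.14 FPKM in cKO, and *Hspa2*, a chaperone, at 172 ± 12.7 and 77.2 ± 12.9 FPKM. *Pygo2*, which was not called, was at 25.3 ± 2.49 and 28.8 ± 4.72 FPKM.

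Of 8 tested spermatid chromatin histone variants, 3 were called lower and 3 higher, with a median of 0.00 (also 0.00 with the genes at 0 in all cKO libraries set to their bounds). The linker histone gene *Hils1* was at 58.2, 184 and 65.4 FPKM in controls and at 0.147, 0.158 and 0.0761 FPKM in cKO. The linker histone gene *H1fnt* was at 56.8, 133 and 54.8 FPKM in controls and at 0 in all cKO libraries. Against 3 fragments over the group this is at least 1589-fold lower, or at least 1107.5-fold without control 2. *H3f3b*, which encodes histone H3.3, was at 360 ± 28.5 FPKM in controls and 534 ± 109 FPKM in cKO (limma adjusted p = 0.0341), a call lost in 7 of 15 alternatives (adjusted p up to 0.104). *H3f3a*, with the same protein product, was not called, at 48.2 ± 7.99 and 49.2 ± 1.06 FPKM. *Hils1* and *H1fnt* were highest in control 2. A further linker histone gene, *Hist1h1t*, went the other way, at 1.73, 1.00 and 0.887 FPKM in controls and at 5.65, 4.79 and 2.81 FPKM in cKO (limma adjusted p = 0.0077, higher in 3 of 3 cKO libraries).

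Of 15 mRNA storage and translation factors, 9 were called lower and 0 higher, with a median of -0.55; at an unadjusted p under 0.05 limma also had 0 higher, while limma-voom called 1. *Ybx2* (MSY2), which binds stored spermatid mRNAs, was at 444, 436 and 400 FPKM in controls and at 137, 139 and 128 FPKM in cKO. *Tdrd6*, a chromatoid body protein gene, was at 23.1 ± 3.65 FPKM in controls and 0.285 ± 0.0476 FPKM in cKO, and *Piwil1* at 53.6 ± 12.1 and 2.55 ± 0.231 FPKM. *Ybx1* was called lower at 260 ± 10.6 and 156 ± 13.1 FPKM, and *Paip2*, a translation repressor, was not called at 72.5 ± 2.83 and 72.1 ± 0.991 FPKM. For these genes control 2 did not stand apart from the other control libraries.

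Of 4 protamine kinases and the phosphatase, 3 were called lower and 0 higher (0 higher also at an unadjusted p under 0.05 and with limma-voom), with a median of -0.44; with quantile normalization or the replicate number as a block 1 was called. *Srpk2* was at 11.0 ± 1.53 FPKM in controls and 7.26 ± 0.631 FPKM in cKO. *Srpk1* was at 22.5 ± 1.37 and 17.6 ± 0.460 FPKM, and *Ppp1cc* at 98.6 ± 8.79 and 73.0 ± 2.18 FPKM. *Camk4* was not called, at 2.06 ± 0.799 and 1.18 ± 0.0766 FPKM.

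**Figure D3:**
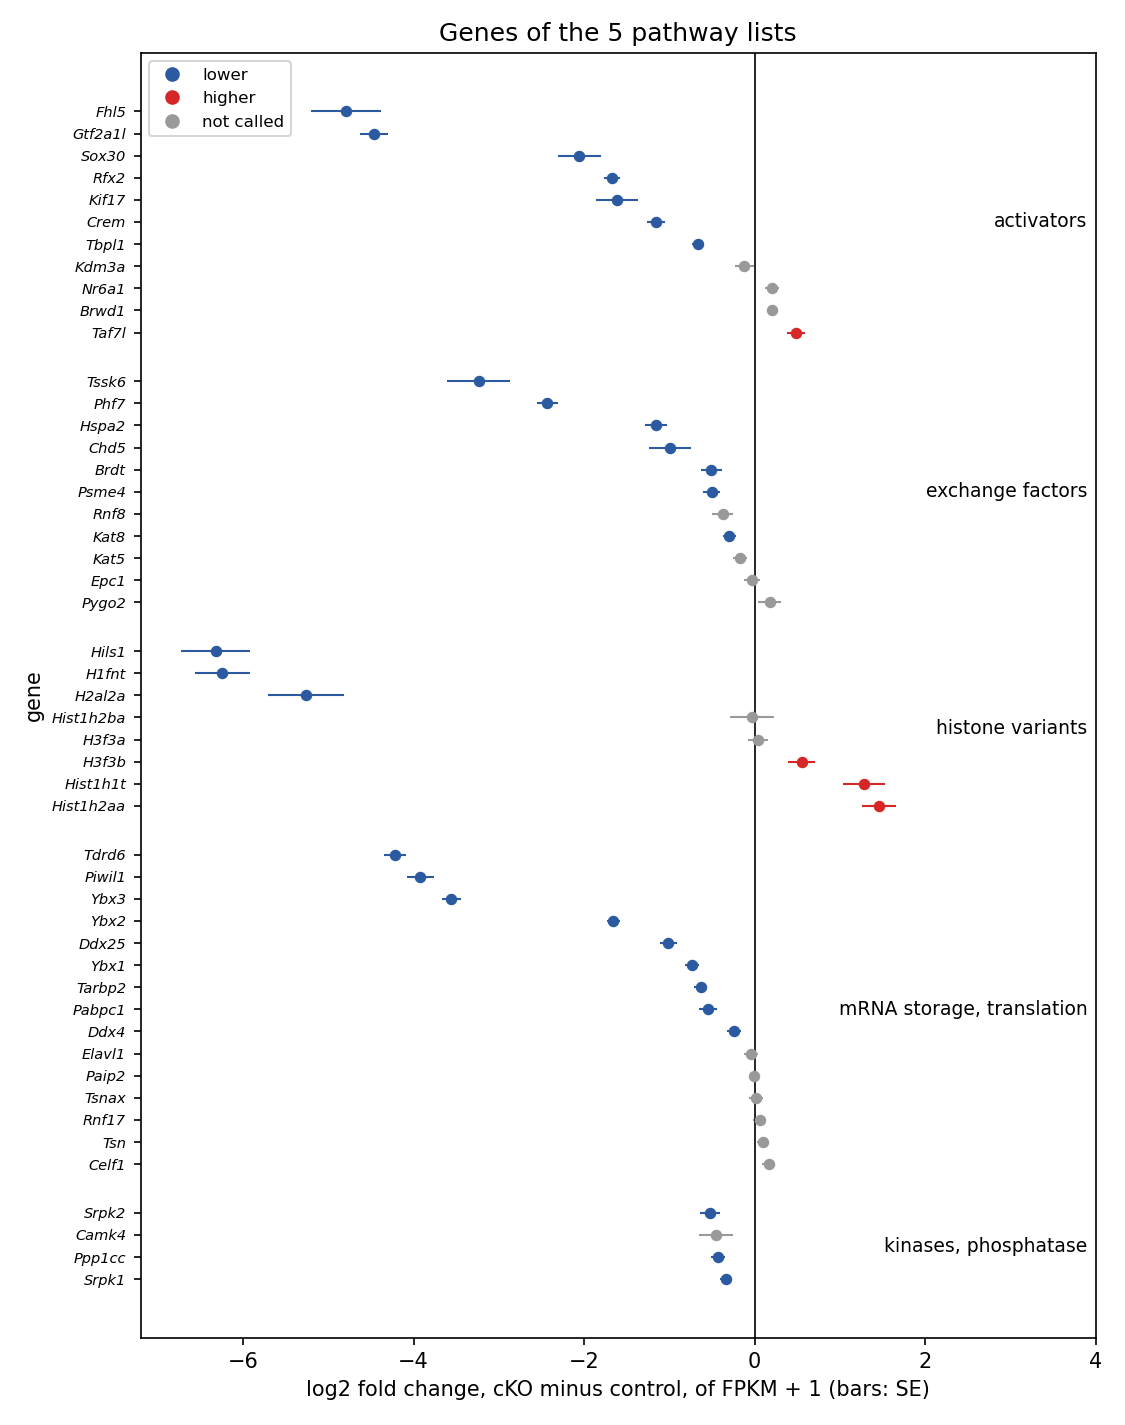
Log2 fold change of each tested gene of the 5 lists, cKO minus control, on the log2(FPKM + 1) scale; bars are standard errors and colours show genes called lower, higher or not called. The genes with the largest fold changes are called lower, and 4 genes are called higher.

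Within 250 kb of the chromosome 16 cluster lay 16 other genes, of which 5 were tested and 1 was called lower, beside 22.2% of all genes tested. The protein-coding neighbours *Socs1*, *Clec16a* and *Rmi2* were not called, although *Rmi2* was called higher in 3 of the 14 alternatives that tested it. *Socs1*, whose end lies 2400 bases from the cluster, was at 9.93 ± 1.62 FPKM in controls and 11.9 ± 3.16 FPKM in cKO. Near *Tnp1* lay 4 other genes, of which 2 were tested and both were called lower. *Igfbp2* was at 64.7 ± 1.99 and 49.2 ± 0.982 FPKM. The antisense gene *1700027A15Rik* was at 15.0, 46.5 and 14.0 FPKM in controls and at 0 in all cKO libraries. That gene spans *Tnp1* on the other strand, and an antisense gene over the annotated *Prm1* span was the neighbour called lower on chromosome 16. It was at 2.45, 3.30 and 3.39 FPKM in controls and at 1.41, 1.79 and 1.33 FPKM in cKO, with control 2 at 1.13 times the mean of the others, beside 3.44 times for *Prm1*. Pooled over the libraries, 49.5% of this antisense gene was left in cKO, beside 0.102% of *Prm1*. The strand used in counting is not given in the sources used here. Strand therefore cannot separate fragments of these antisense genes from those of *Tnp1* or *Prm1*, and the share of such fragments was not tested.

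The genes nearest to the mean profile of the members, by the root mean square difference of mean-centred log2(FPKM + 1) values over 6 libraries, were *Smcp* (0.33), *Ldhc* (0.58) and *Odf1* (0.61). Then came *Rbakdn*, *Gsg1*, *4933411K16Rik*, *Spz1*, *1700019M22Rik*, *Hils1* and *H1fnt*, with 0.92 for the last, beside a median of 4.06 over all genes. *Prm3* itself was at 1.83 from this mean profile, farther than all 10 genes named, and *Tnp2* at 0.75 was farther than 4 of them. *Ldhc* was at 387, 429 and 339 FPKM in controls, with control 2 at only 1.18 times the mean of the others. The likeness of *Ldhc* over 6 libraries therefore rests mainly on the gap between the groups. Control 2 was at 1.06 times for *Rbakdn*. For the rest of the 10 genes named it ran from 2.38 times (*Odf1*) to 3.71 times (*1700019M22Rik*). Over the 3 control libraries alone, where the profile has few degrees of freedom, *H2al2a* (0.01) was the nearest. It was followed by *Gm4152*, *H2al1n*, *Trim80*, *1700125H03Rik*, *Gm14173*, *Spata25*, *Tmigd3*, *Ccl7* and *Trp53tg5*, with 0.04 for the last, beside a median of 0.80. The 5 members were at 0.05 to 0.17 from their own mean over these libraries, all farther than the 10 genes named. *H2al2a* was at 24.8, 83.3 and 25.0 FPKM in controls and at 0 in cKO, while *Ccl7*, *Gm4152* and *Gm14173* were not called between the groups. In control 1, 2 and 3, *Gm4152* had 1, 12 and 1 fragments and *Gm14173* had 0, 9 and 0. The places of these 2 genes among the nearest therefore rest on few fragments.

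The promoters of all 5 members were matched by symbol in RefSeq (build GRCm38.p6), and the 100 bases before the start of transcription were searched on both strands for TGACGTCA, for TGANNTCA and for TATAA, motifs chosen with these promoters in view. TGACGTCA matched none of the 5, and 1.15% of 32851 promoters held it. TGANNTCA, which includes it, matched *Tnp1* at -94, *Prm1* at -64 and *Prm3* at -60, and 6.34% of promoters held it. TATAA matched *Tnp2* at -33, *Prm1* at -32 and *Prm2* at -30 (on the other strand), and 10.2% of promoters held it. A match is a description of letters, not of a bound site. The stretches are shown to give the sequence context of the members; capitals mark the motifs, all 4 stretches are on the minus strand, and the one of *Prm1*, of which 63 bases lie in an annotated exon, is not shown. In those shown, 10 bases of the *Tnp1* and 5 of the *Tnp2* stretch lie in annotated exons. The stretches of *Prm2* and *Prm1* lie within the span that the table gives for the gene itself, since RefSeq starts these genes further in. The coordinates are chr1:73015900-73015999 for *Tnp1*, chr16:10788656-10788755 for *Tnp2*, chr16:10792106-10792205 for *Prm2* and chr16:10790915-10791014 for *Prm3*.
Tnp1: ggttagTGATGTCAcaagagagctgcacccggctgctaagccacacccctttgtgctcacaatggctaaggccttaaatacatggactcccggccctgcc
Tnp2: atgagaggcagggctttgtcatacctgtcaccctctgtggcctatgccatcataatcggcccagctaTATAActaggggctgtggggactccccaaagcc
Prm2: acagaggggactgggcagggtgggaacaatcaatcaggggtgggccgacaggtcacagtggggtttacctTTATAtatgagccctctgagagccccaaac
Prm3: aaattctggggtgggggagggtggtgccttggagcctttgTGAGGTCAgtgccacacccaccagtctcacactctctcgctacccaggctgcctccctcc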

How the data were processed

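The deposited table holds FPKM per gene for 6 libraries, made by the authors; the submitters' processing notes name HISAT2 2.0.5 and mm10, while the counting tool and annotation are not given in the sources used here. FPKM times gene length fell on whole multiples of 1 step in 100% of values above 0 (tolerance 0.05), which gave fragments: 15364511 to 17310353 per control library and 14447887 to 15326722 per cKO library. Median-of-ratios factors of the deposited FPKM were equal in the 6 libraries (largest over smallest minus 1: 3.3e-09), so the values already carry that scaling. Of 54409 gene IDs shared with GENCODE M21, 98.3% had the same coordinates.

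Genes averaging 1 FPKM or more were fitted with limma 3.58.1 (R 4.3.3; eBayes with trend, two-sided) on log2(FPKM + 1), with Benjamini-Hochberg adjusted p at most 0.05; the code was tested on simulated data. A gene is called when it passes. Intervals are exact (Clopper-Pearson) at 95% on pooled fragments, and the floor is 3 fragments; both cover counting error only. Alternatives were a pseudocount of 0.1, other filters, scalings and models, the replicate number as a block, and leaving out each library. Members and lists were chosen with earlier results of these data known. Named genes were *Srsf1*, *Stra8* and the members; per pathway list the 2 called genes with the largest fold change, the 2 most abundant and the most abundant gene not called; protein-coding neighbours of at least 1 FPKM; the 10 nearest profiles over 6 and over 3 libraries; and each marker list's most abundant gene. Markers at 0, genes in several lists, *Hist1h1t* and the antisense neighbours were named after their values were seen.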

Additional observations from a re-analysis of the deposited data

How the results depend on the processing

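Each log2 difference of the 5 members kept its direction in 15 alternatives. With a pseudocount of 0.1 it was -9.49 for *Tnp1*, -10.82 for *Tnp2*, -10.68 for *Prm2* and -6.72 for *Prm3*, and with limma-voom on fragments -9.48, -10.87, -10.84 and -6.80; *Prm1*, at -9.61 and -9.60 there against -8.88, moved by less than the control SD. These are larger since a smaller constant is added to low values. Genes called lower fell to 1950 at a mean of at least 5 FPKM, where 8929 genes were tested. Quantile normalization moved the median of all genes from -0.01 to 0.21 and called 2527 lower and 5164 higher, so 67.1% of calls were higher against 34.6%. Deviations of same-numbered libraries were little correlated (-0.0014, -0.11 and 0.016). With 3 libraries per group this cannot show that the libraries were unpaired. With the replicate block 891 genes were called higher, 0 activators higher and 1 kinase or phosphatase lower. Leaving out 1 library gave 969 to 1767 genes called higher and 4 to 7 exchange factors called lower. Activators called higher numbered 2 at a mean of at least 5 FPKM and 3 with quantile normalization, recomputed FPKM or limma-voom. Storage factors called higher numbered 2 with quantile normalization and 1 with recomputed FPKM or limma-voom. With quantile normalization 1 kinase or phosphatase was called lower, and 1 neighbour was called higher there, with limma-voom and with eBayes without trend. The causes were not tested. Depth limits the order of cKO levels near 3 fragments.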
